A study of Mus musculus with 9 samples.

Results

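The ligands and receptors by which macrophages promote or restrain T cells and phagocytosis were examined as a group of 10 genes in RAW264.7 cells, a mouse macrophage line from a tumour induced by Abelson leukemia virus. The genes were chosen by symbol (Cd80, Cd86, Cd40, Cd274, Pdcd1lg2, Icosl, Cd83, Cd47, Sirpa and Slamf7) and all 10 were found among the 55401 genes of the expression table. The cells received DMSO (the solvent control), DMSO with LPS (a bacterial wall component that activates macrophages through Toll-like receptor 4) or LPS with skatole (3-methylindole, an indole compound formed by gut bacteria from tryptophan). These groups are called DMSO, LPS and LPS + Ska. The labels and the study's results section give 24 h of treatment, while its methods give a longer time. The labels list no DMSO for the skatole group, and the skatole dose of these samples is not given in the sources used here. The 2 questions were which of these genes LPS changed and whether skatole altered that response.

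Each group had 3 RNA-seq columns, numbered replicates 5, 6 and 7, in TPM, the share of a sample's transcripts that a gene contributes once corrected for its length. TPM keeps no read depth, so counting error could not be given. In LPS and in LPS + Ska, the value of replicate 5 was the average of the other 2 columns in 17950 of 17950 and 17658 of 17658 genes with all 3 values above 0, to within 5e-06 TPM. So no more than 2 values per gene are independent in either group, and the SD is that of tied columns. Nothing in the labels says that the columns are separate cultures, so p-values measure the spread between columns, which may be technical. All cells are of 1 line, and a bulk sample cannot tell fewer cells with a transcript from less transcript per cell.

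T cells need a second signal beside the antigen receptor, and activated macrophages give it with CD80 and CD86, which bind CD28, with ICOSL, which binds ICOS, and with CD40, a receptor that T cells engage through CD40L. CD80 and CD86 also bind CTLA-4, and PD-L1 (Cd274) and PD-L2 (Pdcd1lg2) bind PD-1, and these contacts restrain T cells. CD83 is a surface protein of mature antigen-presenting cells that holds CD86 and MHC class II at the surface. CD47 is a ubiquitous signal against being eaten that is read by SIRPα (Sirpa), an inhibitory receptor of myeloid cells, and SLAMF7 is a self-binding receptor of the SLAM family. The transcripts of several of these genes are known to be induced through NF-κB and interferon signaling after Toll-like receptor activation.

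The columns were checked before the members were compared. TPM summed to 999895 to 1000145 per column, and 12498 to 13012 genes reached a TPM of 1. Of 7 macrophage markers, 7 reached TPM 1, with summed levels of 10736 to 11686 TPM in DMSO, 5647 to 5989 in LPS and 11301 to 11441 in LPS + Ska. Most of these sums was Lyz2, which encodes lysozyme, at a mean of 9151, 4423 and 10061 TPM, and the part of this difference in the members' levels was not tested. All 6 genes of a list of LPS response genes rose with LPS, beside 12.7% of all genes tested. This describes the treatment and is no test of it, as the list was picked for that response. Nos2, Il6 and Il1b had mean TPM of 0, 0 and 0.155 in DMSO, and reached the mean TPM of 1 needed for testing only through columns with LPS. Of 6 dendritic cell markers, 1 reached TPM 1 (highest value 1.41), with sums of 0.911 to 1.63, 0.486 to 1.51 and 0.528 to 1.77 TPM in the same order. None of 4 B cell and 5 T cell markers reached TPM 1, with Ms4a1, Pax5, Cd3e, Cd3g, Cd8a and Trac at 0 in every column. DMSO replicate 7 stood apart in Tnf, an NF-κB target, at 102.9 TPM against 53.1 and 52.8 in the other DMSO columns, and values that rest on it are given with and without it.

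The upstream sequences of 3 members are shown because these genes took different courses: Cd80 rose with LPS and was lower with skatole, Cd274 rose and was not called lower, and Icosl fell. The sequences are the 250 bases before the RefSeq start in GRCm38.p6, plus strand, at chr16:38458683-38458932 for Cd80, chr19:29367188-29367437 for Cd274 and chr10:78069118-78069367 for Icosl. RefSeq windows were matched for 6 of the 10 members, and the Cd80 window lies inside the longer GENCODE gene interval. Capitals mark the matches to any of 6 motifs searched on both strands.
Cd80: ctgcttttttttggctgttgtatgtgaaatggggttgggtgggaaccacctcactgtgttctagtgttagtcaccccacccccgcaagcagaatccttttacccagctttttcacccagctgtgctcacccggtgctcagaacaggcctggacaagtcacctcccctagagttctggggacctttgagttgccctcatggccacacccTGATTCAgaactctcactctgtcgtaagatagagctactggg
Cd274: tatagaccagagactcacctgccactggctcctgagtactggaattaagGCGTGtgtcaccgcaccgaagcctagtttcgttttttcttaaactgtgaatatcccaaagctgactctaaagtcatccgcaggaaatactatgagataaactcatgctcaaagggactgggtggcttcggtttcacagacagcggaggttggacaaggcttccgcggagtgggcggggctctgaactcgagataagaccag
Icosl: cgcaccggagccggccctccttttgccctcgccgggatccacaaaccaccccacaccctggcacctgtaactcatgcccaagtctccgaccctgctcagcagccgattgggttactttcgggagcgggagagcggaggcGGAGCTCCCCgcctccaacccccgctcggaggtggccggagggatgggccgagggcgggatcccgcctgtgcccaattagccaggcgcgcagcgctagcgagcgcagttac
The match in Cd80, which begins at base -42 from the start, is to the AP-1 motif TGANTCA, which 6.75% of 32851 windows of this length hold. The match in Cd274, at base -201, is to the XRE core GCGTG bound by the aryl hydrocarbon receptor, which 28.2% of windows hold. The match in Icosl, at base -111 and read on the minus strand, is to the κB motif, which 7.25% of windows hold. The other motifs searched were the core of the interferon-stimulated response element (ISRE, 2.98% of windows), the STAT motif TTCNNNGAA (7.02%) and the PU.1 motif GAGGAAG (10.6%), and they are not in these 3 windows. The same motifs are also in windows not shown here. Slamf7 holds an AP-1 match, also at base -42, and Pdcd1lg2 a κB match, though both were below a TPM of 1 in every column. Cd47, which was not called in any comparison, holds XRE cores. A match describes letters and not a bound site, and a link between these motifs and the courses of the genes was not tested.

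Of the 10 genes, 7 were detected in every group, with TPM of at least 1 in all columns. Cd86, Pdcd1lg2 and Slamf7 were below that level in every column. The 7 detected genes are those that also passed the filter for testing, a mean TPM of at least 1, which left 12819 genes. They were tested with limma on log2(TPM + 1) with Benjamini-Hochberg adjustment over these genes, and a gene was called when its adjusted p was below 0.05 with a fold change over 1.5 or under 0.67. Fold changes on this scale understate the change of low genes, so the TPM of the members is given beside them, with ratios of mean TPM for some.

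With LPS, 3 members rose (Cd80, Cd40 and Cd274) and 2 fell (Icosl and Sirpa), while Cd83 and Cd47 were not called. Over all genes, 12.7% were called higher and 20.0% lower in this comparison. With skatole added to LPS, 2 members fell (Cd80 and Cd83), none rose, and 5 were not called, where 6.14% of all genes were called lower and 3.35% higher. Compared with DMSO, LPS + Ska had 3 members higher (Cd80, Cd40 and Cd274) and 3 lower (Icosl, Cd83 and Sirpa), against 11.4% and 25.3% of all genes. The median log2 fold change of the 7 members was 0.44, -0.26 and 0.33 in the 3 comparisons, beside -0.067, -0.096 and -0.18 over all genes tested. These comparisons share columns: LPS is in both LPS vs DMSO and LPS + Ska vs LPS, and DMSO is in both comparisons against it.

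**Figure D1:**
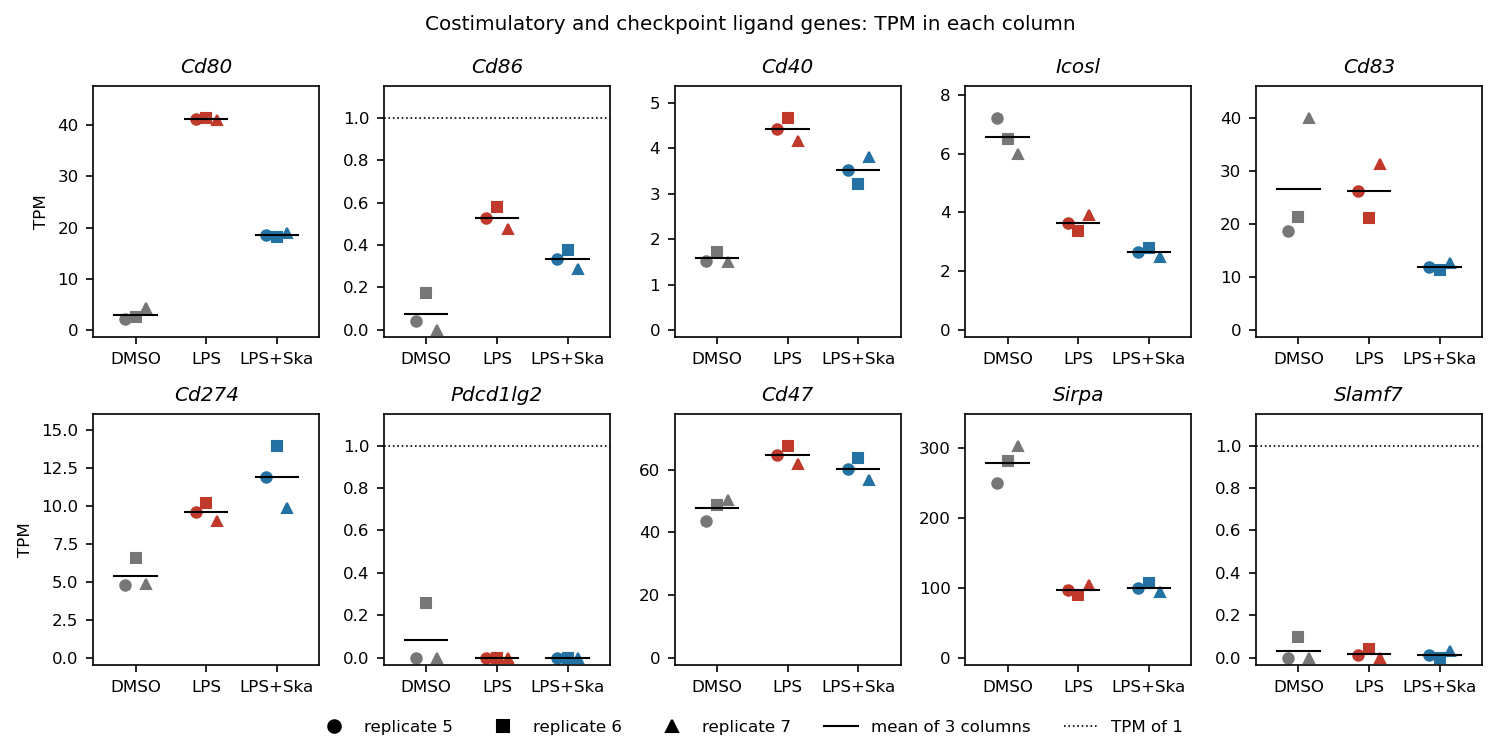
TPM of the 10 genes in each of the 9 columns, 1 panel per gene with its own linear axis, by group (DMSO, LPS, LPS + Ska), with symbols for replicates 5, 6 and 7, solid lines for means and dotted lines at a TPM of 1. Cd80 sits between 41.1 and 41.5 TPM in LPS and between 18.2 and 18.9 in LPS + Ska, while Cd86 stays below 1 TPM in every column.

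Cd80 (ENSMUSG00000075122, GRCm38 chr16:38455561-38496335, plus strand), the CD28 and CTLA-4 ligand, changed more with LPS than any other member tested. Its TPM was 2.18, 2.52 and 4.21 in DMSO replicates 5, 6 and 7, then 41.3, 41.5 and 41.1 in LPS, and 18.6, 18.2 and 18.9 in LPS + Ska. The 3 groups did not overlap, and the DMSO columns were the lowest. Over all genes tested, columns did not overlap for 68.9% in LPS vs DMSO, 51.2% in LPS + Ska vs LPS and 64.8% in LPS + Ska vs DMSO. The group means were 2.97 ± 1.08, 41.3 ± 0.191 and 18.6 ± 0.326 (SD, n = 3 columns each), so that Cd80 rose to 13.9 times its DMSO mean with LPS and fell to 0.450 times the LPS mean with skatole. On the log2(TPM + 1) scale LPS raised it by 3.45 (SE 0.16, adjusted p = 2.71e-07 by limma). Skatole lowered it by comparison with LPS (-1.11, SE 0.16, 95% CI -1.47 to -0.76, adjusted p = 0.00122). LPS + Ska was still above DMSO by 2.33 (adjusted p = 2.20e-06), and its mean kept 40.7% of the rise in TPM from DMSO to LPS. With the independent values recovered from the tied columns, the difference between LPS + Ska and LPS had an adjusted p of 0.0115, and over 19 alternatives its log2 fold change ran from -1.15 to -1.02. The highest Cd80 value in DMSO was in replicate 7, in which Tnf was also high, and without that column the log2 fold change with LPS was 3.66. Cd80 stood at the 14.1 percentile of all tested genes by TPM in DMSO, 69.5 in LPS and 49.8 in LPS + Ska.

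Cd86 (ENSMUSG00000022901, chr16:36603869-36666081, minus strand), the other ligand of CD28 and CTLA-4 and a widely used surface marker of inflammatory macrophages, was listed at low TPM. Depth is unknown, so what these low values owe to it cannot be said. The study itself detected Cd86 in this line by RT-qPCR and at the protein level, and reported it lower with skatole than with LPS alone. Its TPM was 0.0419, 0.176 and 0 in DMSO, 0.527, 0.578 and 0.475 in LPS, and 0.332, 0.376 and 0.288 in LPS + Ska. The columns of the 3 groups did not overlap and took the same order as those of Cd80. The filter kept Cd86 out of the fit of 12819 genes, and in a fit of 25181 genes with no filter its log2(TPM + 1) differed by 0.51 between LPS and DMSO (SE 0.063, adjusted p = 7.12e-04 by limma), inside the fold limit. The difference between LPS + Ska and LPS was -0.20 (SE 0.063, adjusted p = 0.0754). These values depend on the pseudocount, which is larger than the TPM itself. With 0.1 in place of 1, the difference between LPS and DMSO was 1.99 (adjusted p = 0.00417) and passed the fold limit, and that between LPS + Ska and LPS was -0.54 (adjusted p = 0.326). Cd80 had 78.8 ± 7.36 times the TPM of Cd86 in LPS and 56.6 ± 8.53 times in LPS + Ska (SD, n = 3 columns).

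Cd40 (ENSMUSG00000017652, chr2:165055627-165072948, plus strand), the receptor for T cell help, was low in DMSO at 1.52, 1.72 and 1.49 TPM. It rose with LPS to 4.42, 4.68 and 4.17 TPM and stood at 3.52, 3.22 and 3.82 TPM in LPS + Ska. The columns of LPS + Ska lay below those of LPS without overlap. LPS raised Cd40 by 1.07 on the log2(TPM + 1) scale (SE 0.12, adjusted p = 4.83e-05 by limma), or 2.81 times in mean TPM. The difference between LPS + Ska and LPS did not pass the test (-0.26, SE 0.12, 95% CI -0.53 to -0.0021, adjusted p = 0.121), and its adjusted p was 0.297 with the recovered values. Compared with DMSO, Cd40 was higher in LPS + Ska by 0.81 (adjusted p = 2.39e-04).

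Icosl (ENSMUSG00000000732, chr10:78069302-78083913, plus strand), the ICOS ligand, fell with LPS, where Cd80 and Cd40 rose. Its TPM was 7.22, 6.49 and 5.97 in DMSO, 3.63, 3.35 and 3.91 in LPS, and 2.64, 2.80 and 2.48 in LPS + Ska. The 3 groups did not overlap and were ordered DMSO, LPS and LPS + Ska from high to low. LPS lowered Icosl to 0.553 times the DMSO mean (log2 fold change -0.71, SE 0.11, adjusted p = 5.42e-04 by limma). Between LPS + Ska and LPS the log2 fold change was -0.35 (SE 0.11, 95% CI -0.60 to -0.090, adjusted p = 0.0479), which is inside the fold limit, and the adjusted p was 0.151 with the recovered values. Compared with DMSO, LPS + Ska had 0.403 times the mean TPM of Icosl (log2 fold change -1.05, adjusted p = 3.97e-05).

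Cd83 (ENSMUSG00000015396, chr13:43784775-43803132, plus strand), the maturation marker, had the largest SE of the 7 members tested. Its TPM was 18.6, 21.2 and 40.0 in DMSO, 26.2, 21.1 and 31.3 in LPS, and 11.95, 11.4 and 12.6 in LPS + Ska. DMSO and LPS overlapped, and the columns of LPS + Ska lay below all others. The group means were 26.6 ± 11.7, 26.2 ± 5.12 and 11.95 ± 0.600 TPM (SD, n = 3 columns each). No change with LPS was called (log2 fold change 0.041, SE 0.25, 95% CI -0.52 to 0.60, adjusted p = 0.898 by limma). The high DMSO value was that of replicate 7, in which Tnf was also high, and without that column the log2 fold change was 0.37 (adjusted p = 0.0697). Compared with LPS, Cd83 fell in LPS + Ska to 0.456 times the mean (log2 fold change -1.05, SE 0.25, 95% CI -1.61 to -0.50, adjusted p = 0.0128). This call had an adjusted p of 0.0449 with the recovered values and of 0.0494 without LPS replicate 7. Compared with DMSO, Cd83 was lower in LPS + Ska (log2 fold change -1.01, adjusted p = 0.00551), with a value of -0.69 without DMSO replicate 7 (adjusted p = 0.00496). Cd83 was thus called lower than in either other group, whereas Cd80 was lower than in LPS and higher than in DMSO.

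Cd274 (ENSMUSG00000016496, chr19:29367455-29388095, plus strand), which encodes PD-L1, had its highest mean in LPS + Ska. Its TPM was 4.82, 6.56 and 4.86 in DMSO, 9.61, 10.2 and 9.04 in LPS, and 11.9, 14.0 and 9.86 in LPS + Ska. The DMSO columns lay below all others, and LPS and LPS + Ska overlapped. LPS raised Cd274 by 0.74 on the log2(TPM + 1) scale (SE 0.15, adjusted p = 0.00186 by limma), and LPS + Ska was above DMSO by 1.01 (SE 0.15, adjusted p = 2.43e-04). The difference between LPS + Ska and LPS did not pass the test (0.27, SE 0.15, 95% CI -0.05 to 0.60, adjusted p = 0.189), with adjusted p from 0.0742 to 0.430 over 19 alternatives. The interval runs from a fall of 0.05 to a rise of 0.60 on the log2 scale. It counts the tied columns as separate values, and the SE grew to 0.17 once independent values were recovered from them. A larger fall is therefore not excluded. A transcript of the opposite strand, AC119228.1, overlaps Cd274 and was listed at mean TPM of 0.365, 0.307 and 0.446 in the 3 groups. As strandedness is not given in the sources used here, reads of the overlap cannot be assigned to either.

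Pdcd1lg2 (ENSMUSG00000016498, chr19:29410919-29471161, plus strand), which encodes PD-L2, starts 22823 bases after the end of Cd274. It was listed at 0.256 TPM in DMSO replicate 6 and at 0 in the other 8 columns. Cd274 was detected in all 9 columns, so the 2 neighbouring PD-1 ligand genes differed in detection at a TPM of 1. A transcript of the opposite strand, A930007I19Rik, overlaps Pdcd1lg2. It was listed at mean TPM of 0.381, 0.258 and 0.519 in DMSO, LPS and LPS + Ska, and reads of that overlap cannot be assigned either. Slamf7 (ENSMUSG00000038179, chr1:171632403-171653035, minus strand) reached 0.0979 TPM in DMSO replicate 6, 0.0421 in LPS replicate 6 and 0.0311 in LPS + Ska replicate 7, its highest value in each group. No fold change is given for these 2 genes, as each was at 0 in at least 1 column of every group.

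Cd47 (ENSMUSG00000055447, chr16:49800533-49915010, plus strand), the signal against phagocytosis, was not called in any comparison. Its TPM was 43.7, 48.8 and 50.2 in DMSO, 64.7, 67.6 and 61.8 in LPS, and 60.2, 63.6 and 56.7 in LPS + Ska. The columns with LPS lay above those of DMSO, and LPS and LPS + Ska overlapped. The log2 fold change between LPS and DMSO was 0.44 (SE 0.07, adjusted p = 6.59e-04 by limma), which is under the fold limit. Between LPS + Ska and LPS it was -0.10 (95% CI -0.27 to 0.06, adjusted p = 0.309).

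Sirpa (ENSMUSG00000037902, chr2:129592835-129632228, plus strand), the receptor for CD47, was the most abundant of the 10 transcripts in every group. Its TPM was 250.5, 282 and 304 in DMSO, 96.9, 89.1 and 105 in LPS, and 100.5, 107 and 93.8 in LPS + Ska. The DMSO columns lay well above the others, and LPS and LPS + Ska overlapped. LPS lowered Sirpa to 0.347 times the DMSO mean (log2 fold change -1.51, SE 0.09, adjusted p = 1.05e-06 by limma), and it was also lower in LPS + Ska than in DMSO (-1.46, adjusted p = 1.15e-06). Between LPS + Ska and LPS the log2 fold change was 0.05 (SE 0.09, 95% CI -0.14 to 0.25, adjusted p = 0.683). This interval lies inside the fold limits, but it takes the tied columns as separate values. Sirpb1a, Sirpb1b and Sirpb1c are close copies of Sirpa, and whether reads shared with them alter its level was not tested. Their highest values in any column were 3.65, 0.743 and 0.829 TPM.

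**Figure D2:**
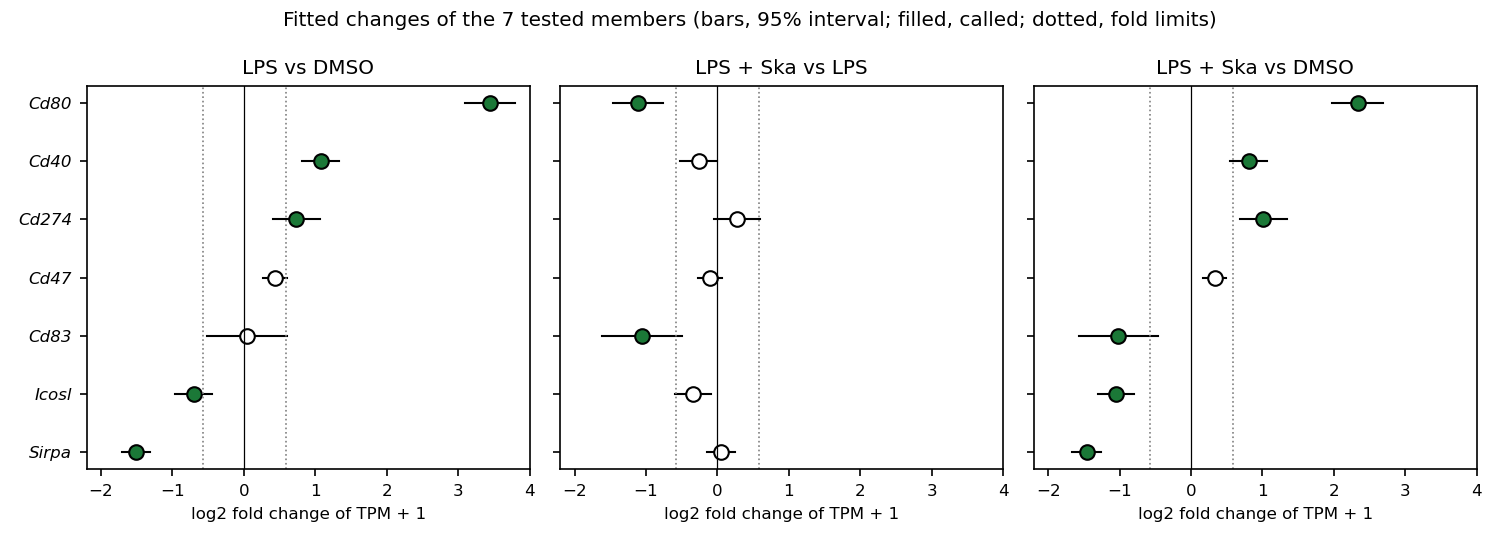
Log2 fold change with its 95% CI for each member tested, on the log2(TPM + 1) scale, in LPS vs DMSO, LPS + Ska vs LPS and LPS + Ska vs DMSO, with called genes filled and the fold limits as dotted lines. Cd80 is at 3.45, -1.11 and 2.33, and Sirpa at -1.51, 0.05 and -1.46.

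The order of the members changed with LPS. In DMSO it ran from Sirpa (279 TPM) through Cd47, Cd83, Icosl, Cd274 and Cd80 to Cd40 (1.58 TPM), and of neighbouring genes in this order the columns of Icosl and Cd274 overlapped. In LPS it ran Sirpa, Cd47, Cd80, Cd83, Cd274, Cd40 and Icosl, with no overlap between neighbours. The same order held in LPS + Ska, where Cd83 (11.95 TPM) and Cd274 (11.93 TPM) overlapped. Icosl thus went from place 4 of 7 in DMSO to place 7 with LPS, and Cd80 from place 6 to place 3.

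Ratios of 2 members within a column do not depend on how the columns are scaled, and 3 were chosen after the values had been seen and are given as a description. Cd80 over Cd274, a costimulatory over an inhibitory ligand, was 0.453, 0.384 and 0.866 in the DMSO columns, 4.29, 4.07 and 4.54 in LPS, and 1.56, 1.302 and 1.92 in LPS + Ska. These groups did not overlap, and LPS + Ska lay between the others. Cd80 over Cd83 was 0.114 ± 0.00753 in DMSO, 1.62 ± 0.329 in LPS and 1.55 ± 0.0507 in LPS + Ska (SD, n = 3 columns), so the 2 transcripts that fell with skatole stayed in a similar proportion. Cd80 over Cd83 in DMSO replicate 7 was 0.105, near the 0.117 and 0.119 of the other DMSO columns, although both transcripts were highest in that column. Sirpa over Cd47 was 5.85 ± 0.177 in DMSO, 1.502 ± 0.187 in LPS and 1.67 ± 0.0150 in LPS + Ska.

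**Figure D3:**
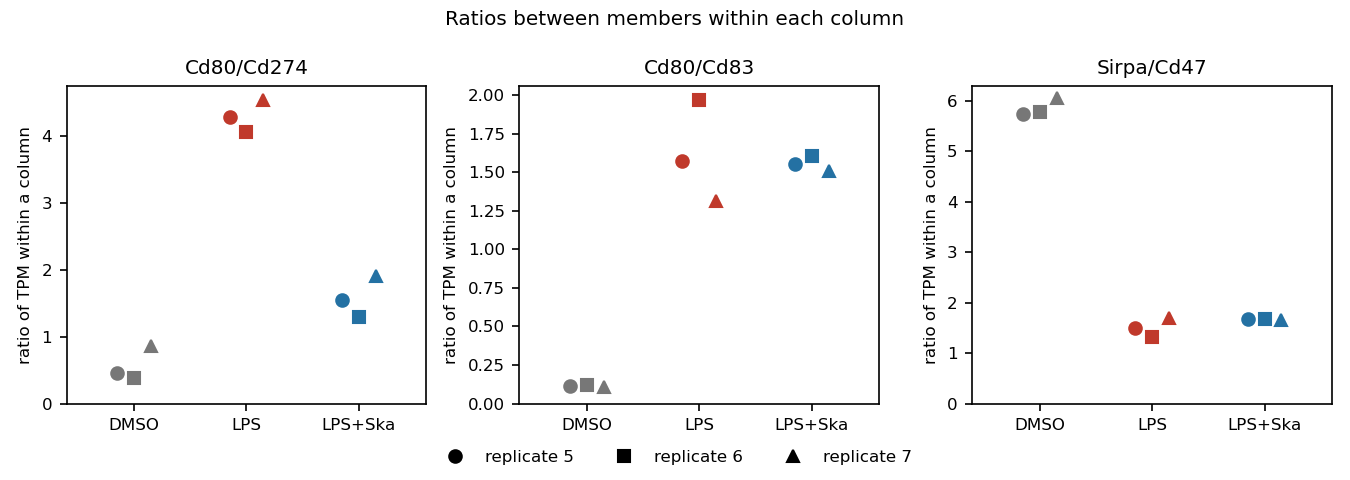
Ratio of TPM of 2 members within each of the 9 columns, on a linear axis from 0, by group, for Cd80 over Cd274, Cd80 over Cd83 and Sirpa over Cd47, with a symbol for each replicate. Cd80 over Cd274 has means of 0.567 in DMSO, 4.30 in LPS and 1.59 in LPS + Ska, while the other ratios in LPS + Ska lie within the range of those in LPS.

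The receptors that these ligands bind on T cells were mostly below a TPM of 1 in the line. Of 6 receptor genes, 2 were tested: Pdcd1, which encodes PD-1, and Rgmb, a PD-L2 binding protein. Ctla4 and Cd40lg were at 0 in every column, and Cd28 did not exceed 0.182 TPM. Icos, the receptor for ICOSL, had means of 0.721, 0.832 and 0.417 TPM in DMSO, LPS and LPS + Ska, with a highest value of 0.985. Pdcd1 was at 8.37 ± 1.07 TPM in DMSO, 9.90 ± 1.61 in LPS and 5.97 ± 0.0482 in LPS + Ska (SD, n = 3 columns). It fell in LPS + Ska compared with LPS (log2 fold change -0.63, SE 0.13, adjusted p = 0.00704 by limma), but was inside the fold limit without LPS replicate 7 (-0.53) and under median-ratio scaling (-0.55). Of the PD-1 pathway genes, the receptor was thus called lower with skatole and the ligand Cd274 was not called. The difference between these 2 changes was not tested.

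Among 14 other ligands and partners of the B7, galectin, TNF and nectin families, 6 were tested. With LPS 1 rose and 3 fell, and with skatole added to LPS 1 fell and none rose. Among all genes tested, 12.7% rose and 20.0% fell with LPS, and 3.35% rose and 6.14% fell with skatole added. Lgals9, which encodes galectin-9, a TIM-3 ligand, rose from 4.06 ± 1.10 TPM in DMSO to 89.0 ± 1.16 in LPS (log2 fold change 4.18, adjusted p = 4.54e-08 by limma) and fell to 52.0 ± 2.37 in LPS + Ska (-0.76 against LPS, adjusted p = 0.00411). Its course was of the same kind as that of Cd80. The inhibitory B7 family genes Cd276, which encodes B7-H3, and Vsir, which encodes VISTA, fell with LPS. Cd276 went from 13.9 ± 1.02 to 3.49 ± 0.272 TPM (-1.73, adjusted p = 1.29e-06), and Vsir from 36.5 ± 3.72 to 15.6 ± 0.0152 TPM (-1.17, adjusted p = 4.33e-06). In LPS + Ska their means were 2.53 and 11.1 TPM, lower than in LPS but inside the fold limit. The log2 fold changes were -0.35 for Cd276 (adjusted p = 0.0341 by limma, 0.114 with recovered values) and -0.46 for Vsir (0.00448 and 0.0264). Nectin2, a ligand of TIGIT and CD226, also fell (-0.71, adjusted p = 0.0207), but its adjusted p was 0.0516 to 0.0667 when DMSO replicate 6 or 7 or LPS replicate 5 or 7 was left out. Its means were 1.66, 0.590 and 0.940 TPM in DMSO, LPS and LPS + Ska, so it passed the filter for testing only through DMSO.

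The CD40 and NF-κB signaling list had 15 genes, all tested, of which 3 rose and 2 fell with LPS. All genes tested had shares of 12.7% higher and 20.0% lower with LPS, and 6.14% lower with skatole added. Traf1, an adaptor of CD40, rose from 13.0 ± 2.12 to 33.4 ± 3.82 TPM (log2 fold change 1.30, adjusted p = 1.86e-05 by limma), and the NF-κB subunits Rel and Nfkb1 rose by 0.84 and 0.78 on the log2 scale. Map3k14, the kinase of the noncanonical pathway, and Rela, the p65 subunit, fell by 1.13 and 0.68 on the same scale. With skatole 1 of the 15 fell and none rose: Tnfaip3, which encodes the NF-κB inhibitor A20, went from 12.7 ± 1.69 TPM in LPS to 6.86 ± 0.593 in LPS + Ska (-0.79, adjusted p = 0.0346). That call was lost with the recovered values (adjusted p = 0.105), with no filter (0.0830) and when any of the 6 columns of LPS and LPS + Ska was left out (0.0523 to 0.106). Other genes of the list were lower with skatole at an adjusted p below 0.05 but inside the fold limit. They include Relb (-0.53, adjusted p = 0.00255 by limma), Nfkbia (-0.52, 0.00167), Nfkb1 (-0.52, 0.00103) and Birc3 (-0.46, 0.00607). Within the list only Traf5 had a positive value (0.31, adjusted p = 0.332), and the share of positive values over all genes was not counted. With no fold limit, 2524 of all 12819 genes tested were called lower, and no such count is given for the list. Genes of this kind were not particular to it. Cd276 and Vsir were among them, as were Irf9 (-0.34, adjusted p = 0.0413 by limma) and Ptpn6 (-0.42, 0.00100) of the lists below. Qpctl, of the same list as Ptpn6, was higher (0.48, 0.0182). The list's median log2 fold change with skatole was -0.37, beside -0.096 over all genes tested.

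The interferon and JAK-STAT list had 12 genes, 11 of them tested, and Cd274, Cd80 and Cd40 are known targets of this pathway. With LPS 4 rose and 2 fell, beside 12.7% and 20.0% of all genes. With skatole added 1 fell and none rose, beside 6.14% and 3.35% of all genes. Stat2 fell from 12.4 ± 2.40 TPM in LPS to 6.38 ± 1.12 in LPS + Ska (log2 fold change -0.85, adjusted p = 0.00631 by limma). It carries type I interferon signals to the nucleus together with Irf9, which rose by 1.90 on the log2 scale with LPS (adjusted p = 9.32e-07). Socs3, an inhibitor of cytokine signaling, rose by 0.70 with LPS and the kinase Jak2 by 0.64, and the receptor chains Ifnar2 and Ifnar1 fell by 1.01 and 0.63 on that scale. The change of Ifnar1 was inside the fold limit under median-ratio scaling (-0.54). Cd80 and Stat2 were both called lower with skatole, while Cd274 was not. The list's median log2 fold change was -0.25 with LPS and -0.26 with skatole, beside -0.067 and -0.096 over all genes tested.

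**Figure D4:**
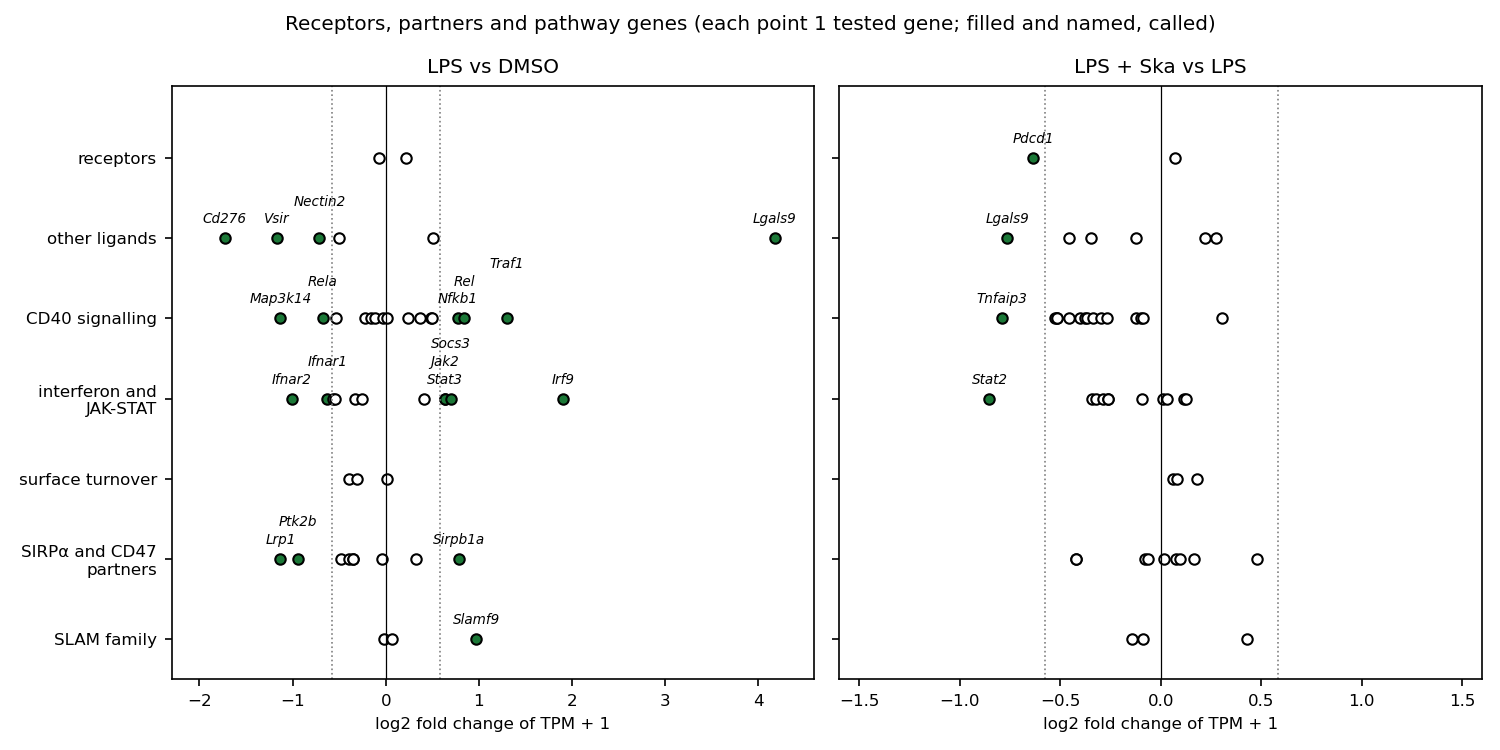
Log2 fold change on the log2(TPM + 1) scale of the tested genes reported from the pathway lists in LPS vs DMSO and LPS + Ska vs LPS, 1 point per gene, with called genes filled and named and the fold limits as dotted lines. Lgals9 is at 4.18 with LPS, and Stat2 is lowest among the called genes plotted with skatole, at -0.85.

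The list around CD47 and SIRPα had 12 genes, 9 of them tested, of which 1 rose and 2 fell with LPS and none was called with skatole. The shares over all genes with LPS were 12.7% higher and 20.0% lower, so these counts do not set the list apart. Lrp1, a phagocytic receptor, fell by 1.13 on the log2 scale (adjusted p = 2.45e-05 by limma) and Ptk2b, a kinase that binds SIRPα, by 0.95 (adjusted p = 1.61e-05), in the same direction as Sirpa. Sirpb1a rose by 0.79 (adjusted p = 0.0219), but is a close copy of Sirpa, and its adjusted p was 0.0589 to 0.0735 in 4 alternatives. Of 11 SLAM family genes and adaptors, 3 were tested. Slamf9 rose with LPS by 0.97 on the log2 scale (adjusted p = 0.00264), from 0, 0.537 and 0 TPM in DMSO to 1.27 ± 0.156 in LPS, and had 2.06 ± 0.358 TPM in LPS + Ska. With a DMSO mean of 0.179 TPM, it passed the filter for testing only through the groups with LPS. Of 4 genes for turnover of these proteins at the surface, 3 were tested and none was called in any comparison.

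The genes most like Cd80, Cd86 and Cd274 in pattern were found by Pearson's r of log2(TPM + 1) over the 9 columns among 10029 genes averaging 5 TPM or more. The values describe 9 columns of 3 groups, 6 of them tied. For Cd80 they were Slfn5 (r = 0.997), Trim30a (0.996) and Ddx58 (0.996), which had 17.9, 59.1 and 86.0 TPM in LPS and 7.97, 28.4 and 33.1 TPM in LPS + Ska. For Cd86 they were Dusp16 (0.993), Gm42635 (0.990) and Hnrnpa2b1 (0.986). For Cd274 they were Zfp946 (0.992), Ubqln2 (0.992) and Dimt1 (0.992), which had their highest mean in LPS + Ska, as Cd274 did.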

How the data were processed

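Per the submitters' processing notes, reads were handled with fastp 0.20.1, HISAT2 2.2.1 and StringTie 2.0 on mm10. The authors deposited TPM for 55401 genes by Ensembl identifier, and 55141 identifiers were matched to symbols of GENCODE M21. Sums, ties, detection and ratios used TPM as deposited. Fold changes came from limma 3.58.1, run in R 4.3.3 on log2(TPM + 1) with the trend option of eBayes, for all 9 columns and the 12819 genes averaging 1 TPM or more. The fit was tested on simulated data. Samples were treated as unpaired by number, as correlations of same-numbered deviations were 0.38, 0.15 and 0.13 between LPS and LPS + Ska, whose columns are tied, and -0.032 to 0.080 otherwise. Named genes were the 10 members, up to 3 genes per pathway list and direction with the largest called change in LPS vs DMSO and in LPS + Ska vs LPS, and the 3 genes most like Cd80, Cd86 and Cd274. Further genes are named to show a limit, and those inside the fold limit with skatole were picked after their values were seen. Members and lists were chosen with earlier results of these data known, and 2 genes of these lists are not reported here. Alternatives were the pseudocount, filter, scaling, call limits, recovered values (replicate 5 plus and minus 0.5 times the difference of replicates 6 and 5), the fitted groups, a block for replicate number, leaving out columns and no trend. Promoter sequences came from RefSeq. Figures were drawn with matplotlib 3.10.9.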

Additional observations from a re-analysis of the deposited data

How the results depend on the processing

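For the 7 members tested, 19 alternatives gave 393 refitted values, of which 386 kept direction and call, 3 became called and 4 changed sign. With no fold limit, Cd47 was called against DMSO in LPS and in LPS + Ska, and Icosl in LPS + Ska vs LPS, and over all genes 3354 rose and 4380 fell in LPS vs DMSO, 1139 and 2524 in LPS + Ska vs LPS, and 2915 and 5201 in LPS + Ska vs DMSO. At a mean TPM of at least 5, 516 genes fell in LPS + Ska vs LPS, and 1 member was called lower in LPS vs DMSO, as Icosl was not in that fit. Signs changed in values that were not called: Cd83 in LPS vs DMSO was -0.17 without DMSO replicate 5, -0.077 without DMSO replicate 6 and -0.092 without LPS replicate 7 (0.37 without DMSO replicate 7), and Sirpa in LPS + Ska vs LPS was -0.0045 without LPS replicate 6 (0.11 without LPS replicate 7 and 0.15 under median-ratio scaling). The cause was not tested. Median-ratio scaling moved the median of all genes from -0.067, -0.096 and -0.18 to 0.0071, -0.0046 and -0.013, and the share of calls that were higher from 38.9%, 35.3% and 31.0% to 47.8%, 52.0% and 48.4%. A replicate block changed no call of a member, with an adjusted p by limma of 0.0033 for Cd80 and 0.0076 for Cd83 in LPS + Ska vs LPS. For Cd86, whose alternatives were chosen after seeing the data, a pseudocount of 0.1 also brought LPS + Ska vs DMSO past the limits (1.45, adjusted p = 0.0161), but not with recovered values (0.0689). Depth is unknown, so what the low values of Cd86, Pdcd1lg2 and Slamf7 owe to it cannot be said.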
